A study of Mus musculus with 3 samples.

Results

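Of the 20903 barcodes kept from 3 single-cell libraries of mouse aorta, 50 were called endothelial, although every library had been sorted for the leukocyte surface protein CD45. Among these 50, 2 were low in other endothelial genes and go against the label. A barcode was kept with 200 or more detected genes and at most 10% of its UMIs (unique molecular identifiers, each standing for 1 captured RNA molecule) from mitochondrial genes. It was called endothelial with 3 or more UMIs summed over Cdh5, Kdr, Cldn5, Egfl7 and Esam, no more than 1 UMI each of Ptprc and Col1a1, and none of Cd79a, Csf1r or Cd3e. The members were thus chosen by their own counts of these 10 genes, whose levels are given as a description. Whole aortas, adventitia included, had been taken from ApoE-/- mice on the C57BL/6J background, digested with collagenases and hyaluronidase, and sorted for live, Hoechst-stained CD45+ cells before capture with a 3' droplet kit. The Control library came from mice labelled as control with no further treatment named, the library labelled HHcy from mice given homocysteine at 1.8 g/L in drinking water for 4 weeks, and the WD library from mice fed a western diet for 4 weeks. Age, sex and the number of mice are not given in the sources used here. Each condition has 1 library and cells of 1 library are not replicates, so no test between conditions was made, and every interval covers counting error only.

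The endothelium is the single layer of cells that lines every vessel. It seals the vessel through VE-cadherin (Cdh5) and claudin-5 (Cldn5), controls clotting, tone and leukocyte entry, and senses blood flow. Endothelial cells of arteries, capillaries, veins and lymphatics carry distinct genes: arteries the gap junction protein connexin 40 (Gja5), fat and muscle capillaries the fatty acid carrier Fabp4 and the lipase anchor Gpihbp1, veins the transcription factor Nr2f2, and lymphatics the transcription factor Prox1 and the chemokine Ccl21a. An aorta with its adventitia holds the large-artery lining itself, the small vessels that feed its wall, and lymphatics.

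The 3 matrices hold 7512 barcodes and 66789257 UMIs for Control, 9753 and 105180370 for the library labelled HHcy, and 8557 and 93164076 for WD. Members had a median of 6575 UMIs (530 to 37491) and 2544 genes, against 8696 UMIs and 2498 genes in the other 20853 kept barcodes. Between 20 and 24 called barcode sequences were shared by each pair of libraries, and 0 of them was a member. Apoe, the gene named as inactivated in the strain label, stood at 16.3 CPM (UMIs of a gene per 1000000 UMIs of the set of barcodes) in Control, 19.3 CPM in WD and 374 CPM in the library labelled HHcy, which goes against that library's label. The altered allele is not given in the sources used here. A 3' count of this gene may lie outside the altered part and then does not check the label. The count still sets the library labelled HHcy apart from Control and WD, and the cause was not tested.

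Other endothelial genes, which the rule did not use, were high in 48 of the 50 members. A list of 25 other endothelial genes, among them Pecam1, Tek, Tie1, Ptprb and Nos3, summed to a median of 18054 CPM per member, with 311 CPM the lowest and 30178 CPM the highest. Only 2 members fell below 2000 CPM, and the next was at 4907 CPM. The first of those 2, member 7 of the library labelled HHcy, carried 3512 UMIs and 1424 CPM of the list. Its leading genes were Tbc1d4, Tspan3 and Ryr3, with 18 UMIs of the chemokine receptor Ccr7. The second, member 12 of WD, carried 19268 UMIs and all 6 of its rule UMIs were Cdh5. It held 279 UMIs of Clu, 262 of Mfge8, 145 of Cxcl13 and 96 of Csn2. Both go against the label and get no other cell type name here, and the results that rest on member 12 of WD are named as such.

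**Figure D1:**
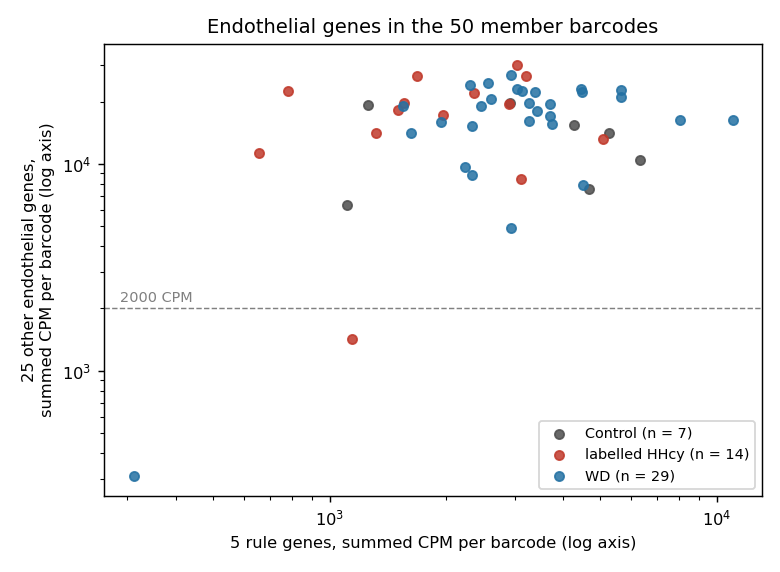
Summed CPM of the 5 rule genes (x, log axis) against that of 25 other endothelial genes (y, log axis) in each of the 50 members, coloured by library. The dashed line marks 2000 CPM; 48 members lie at or above 4907 CPM and 2 lie below the line.

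At the edge of the rule, the 4 members with exactly 3 rule UMIs had between 4907 and 22642 CPM of the 25-gene list, and the 5 barcodes with 2 rule UMIs that met every other criterion had between 1035 and 9369 CPM. A further 117 kept barcodes reached 3 rule UMIs but failed on the other genes, 101 of them on Ptprc and 74 on Csf1r. In those 117 the 25-gene list had a median of 131 CPM, and 17 reached 2000 CPM. They stay among the other kept barcodes, so the ratios below include their endothelial RNA in the denominator. Of the 50 members, 44 carried 3 or more different rule genes and 43 had no Ptprc UMI. Summed over members, Ptprc, which encodes CD45 and was limited by the rule, stood at 16.6 CPM against 684 CPM in the other barcodes. How the members passed the CD45 sort was not tested.

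Detection was also compared at equal depth. After each barcode was thinned to 1000 UMIs, which 48 members reached, Cdh5 was detected in 58.3% of members and 0.0290% of B cell barcodes, which had a median of 6790 UMIs at full depth. Unthinned, the shares were 92% and 0.261%. For Tie1, an angiopoietin co-receptor, the thinned shares were 31.3% and 0.0145%. Pecam1 (CD31), which leukocytes also express, was detected in 81.3% of thinned members and 10.4% of thinned B cell barcodes. Fabp4 was found in 35.4% of thinned members and in 12.1% of thinned macrophage barcodes.

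Over all 16125 genes with 30 or more UMIs, 6.8% were at least 4-fold higher in members than in the other kept barcodes with 10 or more member UMIs, and 4.35% were at least 4-fold lower. The median gene had a log2 ratio of 0.77. Against that background all 25 of the endothelial genes outside the rule were past 4-fold higher, with a median log2 ratio of 8.69. The 20 genes with the largest ratios were Gkn3, Cyyr1, Podxl, Tie1, Cldn5, Mmrn2, Pgm5, Gja5, Grrp1, AU021092, Megf6, Emcn, Palmd, Tmem255b, Kif26a, Sox18, Sox17, Ptprb, Fam107a and Tek, of which Cldn5 is a rule gene. Gkn3, a secreted gastrokine-family protein, led them with 431 CPM (371 to 498) against 0.229 CPM, and its 182 UMIs came from 16 members. Podxl, a sialomucin of the luminal surface, was detected in 40 members at 391 CPM, and the phosphatase Ptprb, which acts on the angiopoietin receptor Tek, in 41 members at 1657 CPM.

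Junction and basement membrane genes were high in members as groups. Of 12 junction genes, 10 were past 4-fold higher, with a median log2 ratio of 5.75. Cdh5, Cldn5 and Esam of this list are rule genes. The count and median are thus partly set by how members were chosen. Jam2, a junctional adhesion molecule, stood at 185 CPM against 1.47 CPM, and Cgnl1, a junction adaptor, at 469 against 8.99 CPM. Of 12 basement membrane genes, 11 were past 4-fold higher. The laminin chain Lama5 stood at 94.7 CPM against 0.177 CPM and the perlecan gene Hspg2 at 459 against 4.78 CPM. The basement membrane list as a whole, at 3021 CPM, was below its 10808 CPM in the 219 fibroblast barcodes of these libraries.

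Of 10 haemostasis genes, 8 were past 4-fold higher. Vwf, the platelet-binding von Willebrand factor, stood at 1118 CPM (1019 to 1223) in 37 members against 5.17 CPM. The protein C receptor Procr stood at 379 CPM and its partner thrombomodulin (Thbd) at 208 CPM.

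Receptors for vascular growth factors were unequal. Among 7 VEGF and angiopoietin receptors, 6 were past 4-fold higher, Nrp2 being the exception. Tek stood at 429 CPM in 35 members, Tie1 at 386 CPM in 38, and Flt1 at 227 CPM in 25. Kdr, the main VEGF-A signalling receptor and a rule gene, was at 118 CPM and detected in 13 members. Tip-cell genes of sprouting vessels were scarce: Apln, Esm1 and Pgf had 0 UMIs in the 422365 UMIs of all members, and Plvap, which forms the diaphragms of fenestrae and caveolae, was the 1 gene of 8 past 4-fold higher, at 786 CPM in 27 members.

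Of 18 Notch, ephrin and BMP genes, 14 were past 4-fold higher, among them Id3, a target of BMP signalling, at 1028 CPM in 40 members. The Notch ligand Dll1 stood at 114 CPM in 21 members and Dll4 at 33.1 CPM in 7. Of 9 flow-response genes, 6 were past 4-fold higher, among them the nitric oxide synthase Nos3 (294 CPM, 33 members) and endothelin (Edn1, 447 CPM). The flow-induced factors Klf2 and Klf4 were 1.82- and 1.86-fold higher, close to the median of all genes (log2 ratio 0.77). Leukocytes carried them too: Klf2 stood at 1238 CPM in members and 908 CPM in B cell barcodes.

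**Figure D2:**
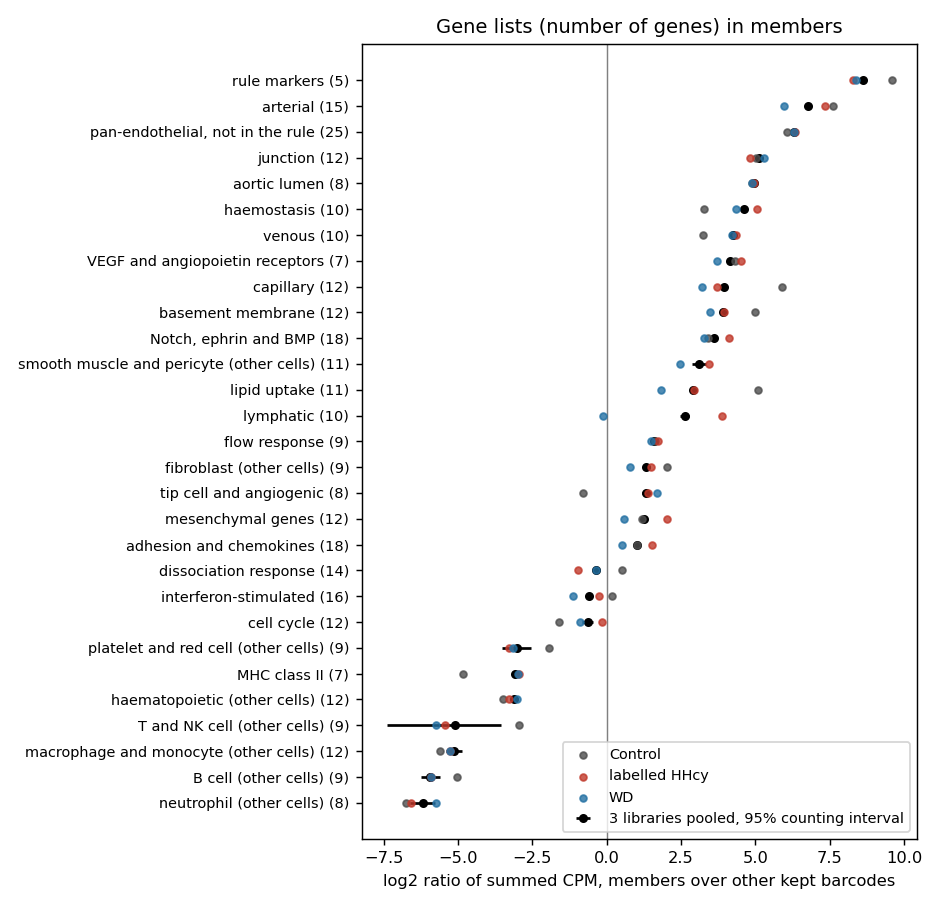
Log2 ratio of the summed CPM of each gene list in members over that in other kept barcodes: black points pool the 3 libraries with 95% counting intervals, coloured points give single libraries, and a library with 0 UMIs has no point. Endothelial lists lie to the right, at 8.61 for the rule genes and 6.75 for arterial genes, and leukocyte lists to the left, down to -6.17 for neutrophil genes; the list of mesothelial, fat and Schwann genes is not drawn.

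Vessel type was called for a single barcode with 3 or more detected genes of 1 of 4 lists (15 arterial, 12 capillary, 10 venous, 10 lymphatic) and more of that list than of any other. By this count 33 of 50 members were arterial (66%, exact 95% interval 51.2% to 78.8%), 10 capillary (20%, 10.0% to 33.7%), 4 venous, 1 lymphatic, and 2 had no type. Of those 2, member 2 of the library labelled HHcy tied at 5 arterial and 5 venous genes, with 6152 CPM of arterial genes. The other, member 7 of that library, is low in endothelial genes. The planned clustering of members was not run because it was set for 100 or more. A type cut from gene counts is a range rather than a cell class, and it depends on depth: arterial members had a median of 8842 UMIs and capillary members 2217. After thinning to 1000 UMIs, 20 of 48 barcodes were arterial (41.7%), 9 capillary and 14 without a type. Among the members called arterial is member 12 of WD.

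**Figure D3:**
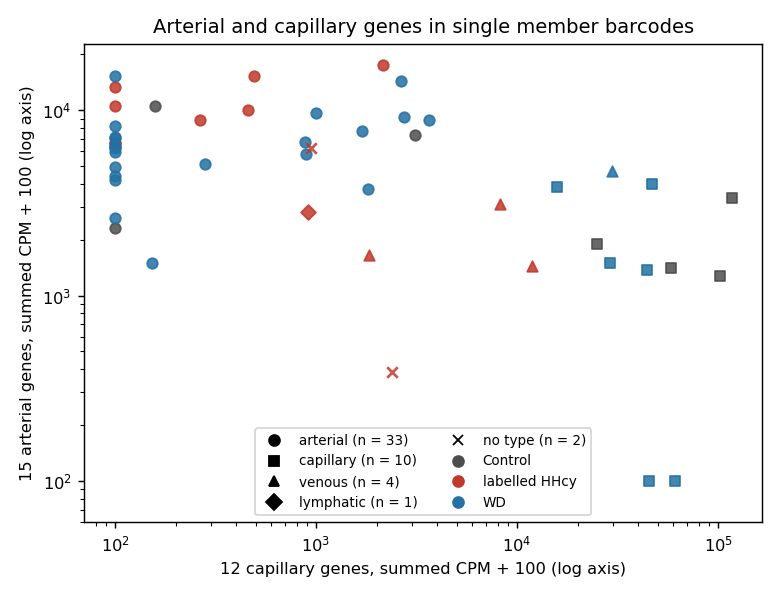
Summed CPM of 12 capillary genes (x) against 15 arterial genes (y) in each member, 100 CPM added and both axes logarithmic; shape gives the vessel type and colour the library. The 10 capillary members lie at 15637 CPM of capillary genes or more, with venous member 9 of WD among them at 29714 CPM, and the 33 arterial members at 3550 CPM or less.

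The vessel lists were also compared as sums. The 15 arterial genes summed to 6684 CPM in members against 61.9 CPM in the other barcodes (log2 ratio 6.75, 6.70 to 6.81), and 14 of the 15 were past 4-fold higher. Capillary genes summed to 5874 against 378 CPM (3.96, 3.90 to 4.01; 8 of 12), venous genes to 3596 against 189 CPM (4.25; 7 of 10), and lymphatic genes to 838 against 136 CPM (2.62; 6 of 10). Fabp4, Cd36 and Lpl of the capillary list are also carried by macrophages, which held 183, 181 and 229 CPM of them. With fibroblast barcodes in place of all others, the order turned, with log2 ratios of 1.36 for arterial, 2.38 for venous and 3.97 for capillary genes; fibroblast barcodes held 1325 CPM of Cxcl12, 650 CPM of Fbln5 and 497 CPM of Tm4sf1. In the 19 members with at most 5 UMIs of haematopoietic genes, a limit that keeps shallower barcodes, capillary genes also led, at 5.88 against 5.57 for arterial genes, and 47.4% were capillary against 36.8% arterial.

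Genes outside the 4 vessel lists also differed between arterial and capillary members. The share of all genes that differ between these 2 types was not computed, here or below. The genes named are thus a description, from 315430 UMIs of arterial and 27668 UMIs of capillary members. Clu (clusterin, a secreted chaperone) had UMIs in 33 of 33 arterial members, from 555 to 14480 CPM with a median of 3876 (highest 8549 CPM without member 12 of WD), and 0 UMIs in all 10 capillary members, where 3 UMIs would have read 108 CPM. Cytl1, a small secreted cytokine-like protein, was in 32 arterial members with a median of 4357 CPM and in 1 capillary member, at 5888 CPM. The 2 types did not overlap for Clu and overlapped in that 1 barcode and in member 12 of WD for Cytl1. Smoc1, Sulf2, Adh7 and Ptgis were, with Gkn3, the 5 genes outside the lists that most set arterial members apart. Smoc1, a matrix inhibitor of BMP signalling, was in 27 of 33 arterial members at 453 CPM and in 0 of the other 17 members. A fixed list of 8 genes of the aortic lining (Clu, Gkn3, Eln, Fn1, Cytl1, Bmp4, Gata6 and Vcam1, the last also in the venous list) summed to a median of 15675 CPM per arterial member and 0 CPM per capillary member.

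Connexin 40 and its partner connexin 37 (Gja4) belong to the list that made the arterial call, so their split is given as a description. Gja5 (chromosome 3, 96904693 to 97077416, plus strand, GRCm38) was detected in 30 of 33 arterial members, with a median of 439 CPM, and in 0 of 10 capillary members. Gja4 stood at 415 CPM in arterial members and 0 in capillary members. Tm4sf1, also of that list, was found in both types, at 4686 CPM in arterial and 904 CPM in capillary members. Hey1 and Dll4 were sparse, with 4 and 14 UMIs in all members.

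Promoters of Cytl1 and Gja5, the first outside and the second inside the arterial list, both high in arterial members, are printed from RefSeq (GRCm38.p6) as 250 bases before to 50 bases after the start. Cytl1 lies at chr5:37735269-37735568 and Gja5 at chr3:97032152-97032451, both on the plus strand. The Gja5 start used here lies inside the gene span given above, which begins at 96904693, and not at its first base. Capitals mark AGGAAG on either strand, a core often bound by ETS factors such as Erg, itself at 92.3 CPM in 20 members.
Cytl1: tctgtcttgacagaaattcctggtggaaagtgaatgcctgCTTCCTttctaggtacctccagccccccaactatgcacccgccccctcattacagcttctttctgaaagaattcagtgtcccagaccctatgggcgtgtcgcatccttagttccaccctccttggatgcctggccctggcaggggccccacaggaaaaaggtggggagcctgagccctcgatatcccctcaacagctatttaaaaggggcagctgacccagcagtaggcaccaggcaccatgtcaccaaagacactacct
Gja5: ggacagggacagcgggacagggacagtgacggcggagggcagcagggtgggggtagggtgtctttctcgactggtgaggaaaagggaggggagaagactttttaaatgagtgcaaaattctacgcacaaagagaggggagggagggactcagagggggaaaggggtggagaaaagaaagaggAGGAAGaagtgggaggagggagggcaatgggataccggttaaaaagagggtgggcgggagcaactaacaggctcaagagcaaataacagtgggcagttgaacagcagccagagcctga
The Cytl1 and Gja5 windows hold 1 match each. The window of the rule gene Cldn5, also looked up but not printed, holds 0 matches. AGGAAG on either strand occurs in 35.4% of all 32851 promoter windows and in 6 of the 15 windows found for 13 of the 20 leading genes, a share close to the background. ACAAT, a core of SOX factor sites, occurs in 31.0% of all windows and in 5 of those 15.

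Capillary members carried very high levels of Fabp4 and of Gpihbp1, Cd36 and Lpl, genes of fatty acid uptake that are in the list that made the call. The wider list of 11 lipid uptake genes was not high as a group: 2 were past 4-fold higher in members than in other barcodes, Slc27a3 was at 0, and the median log2 ratio of 0.95 was near the 0.77 of all genes. Fabp4 (chromosome 3, 10204088 to 10208576, minus strand, GRCm38) had a median of 34649 CPM in the 10 capillary members, from 4996 to 83370 CPM. In arterial members its median was 0, with UMIs in 8 of 33 and a highest value of 2318 CPM. That the 2 types did not overlap is a description only, since Fabp4 helped to make the call. Gpihbp1 stood at 2169 CPM, the fatty acid transporter Cd36 at 4662 CPM and lipoprotein lipase (Lpl) at 2422 CPM in capillary members. All 3 had 0 UMIs in the 315430 UMIs of arterial members, which would have shown 3 UMIs as 9.51 CPM. At a limit of 2000 CPM, 12 members carried Fabp4 alone, 28 Cytl1 alone, 2 both and 8 neither.

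Other genes, not used for the vessel call, also differed between the 2 types, again without a share over all genes to set them against. The VEGF receptor Flt1 stood at 1337 CPM in 9 of 10 capillary members against 108 CPM in 13 of 33 arterial members. Kdr, whose counts helped to choose the members, is given only as a description, at 723 CPM in 6 of 10 and 12.7 CPM in 3 of 33. Robo4 was at 325 CPM in 5 capillary members and at 0 in arterial members. Col4a1 and Col4a2, chains of basement membrane collagen, stood at 1518 and 1084 CPM against 311 and 108 CPM. The anti-adhesive matrix protein Sparcl1 was in 8 capillary members at 1193 CPM and in 0 arterial members. Pecam1, Nos3 and Cgnl1 went the other way, with Nos3 at 336 CPM in 28 arterial members and 36.1 CPM in 1 capillary member.

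Interferon-stimulated genes were higher in capillary members, with a median of 4284 CPM for 16 genes against 1387 CPM in arterial members. Ranges overlapped, from 583 to 11777 CPM and from 0 to 4831 CPM. As a sum the list stood at 5638 CPM in capillary and 1579 CPM in arterial members. A large part of the former was the GTPase Iigp1, at 2891 CPM in 6 capillary members and 206 CPM in 20 arterial members. Members 1 and 3 of Control held 42 and 33 of the 156 capillary UMIs of the list. The T cell attractant Cxcl9 was at 1554 CPM in 4 capillary members, 62.8% of it in 1 of them. MHC class II genes were the reverse, with medians of 451 and 1921 CPM. Their sum over all members was 2339 CPM, against 19491 CPM in B cell barcodes, and 6 of 7 genes were at least 4-fold lower in members than in the other barcodes.

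Leukocyte adhesion and chemokine genes were near level as a list, at 3754 CPM in arterial and 3181 CPM in capillary members (log2 ratio 0.24, -0.07 to 0.57). Vcam1, Selp, Sele and Icam1 are also in the venous list used for the call, so their split among types is a description. Vcam1, the integrin ligand for monocytes, had a median of 686 CPM in arterial members, with UMIs in 29 of 33, and 0 UMIs in all 10 capillary members. P-selectin (Selp) was at 561 CPM in 24 arterial members and at 0 in capillary members. E-selectin (Sele) was found in 4 members and Icam1 in 31, at 353 CPM. Of 17 adhesion and chemokine genes tested, 10 were past 4-fold higher than in other barcodes and 3 at least 4-fold lower, namely Ccl2, Ccl7 and Cxcl10. Glycam1 and Madcam1, of high endothelial venules and gut venules, were each found in 1 WD member.

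The 4 members called venous were not alike. Members 5 and 11 of the library labelled HHcy and member 9 of WD carried Fabp4 with 23, 358 and 46 UMIs. Member 13 of the library labelled HHcy carried 145 UMIs of the protease gene Adamts8, which no other member had, and 5 lymphatic genes. The scavenging receptor Ackr1 of venules was found in 3 members with 14 UMIs in all. Nr2f2 had UMIs in all 4 venous members, at 539 CPM, and in 3 of the other 46 members. The venous list overlapped in use with arterial members, since Vwf, Vcam1, Selp and Icam1 are in it and were in 31, 29, 24 and 23 arterial members.

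Lymphatic endothelium was represented by 1 barcode. Member 3 of the library labelled HHcy carried 7368 UMIs and all 10 lymphatic genes, and 112 UMIs of Ccl21a, the ligand that guides dendritic cells and T cells to lymphatics, came from it alone. Ccl21a counts join 2 entries of the same symbol (chromosome 4, 42772860 to 42773993, minus strand, GRCm38, and an unplaced scaffold) and lie among near-identical copies, so the split among copies is uncertain. The hyaluronan receptor Lyve1 had 59 UMIs in 3 members, 88.1% of them in that barcode, and Prox1 4 UMIs in 2. It supplied 65.0% of the lymphatic UMIs of all members, and without the library labelled HHcy the lymphatic log2 ratio was -0.15. No member of Control or WD was called lymphatic: 0 of 7 and 0 of 29, which allow shares of up to 42.9% and 10.3% by 3 counts and 41.0% and 11.9% by the exact interval.

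Members were 0.116% of kept barcodes in Control (7 of 6038, exact interval 0.0466% to 0.239%), 0.172% in the library labelled HHcy (14 of 8155, 0.0939% to 0.288%) and 0.432% in WD (29 of 6710, 0.290% to 0.620%). On the log2 scale the share in the library labelled HHcy lay 0.57 above Control (-0.84 to 2.12), and the WD share 1.90 above it (0.68 to 3.33). The counting interval for WD lay above 0 and that for the library labelled HHcy spanned it. With at most 5 haematopoietic UMIs per member (5 in Control and 2 in the library labelled HHcy) the latter turned to -1.76. Fibroblast barcodes, the other non-leukocytes of the sort, moved with them, at 0.381%, 0.711% and 2.06%. Set against fibroblast barcodes, members numbered 30.4, 24.1 and 21.0 per 100, so the WD log2 ratio to Control became -0.53. A share of sorted barcodes depends on the sort gate, and more endothelial cells in the aorta and more of them passing the gate cannot be told apart.

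Type makeup differed in its point values between libraries. Control had 3 arterial and 4 capillary members of 7. The library labelled HHcy had 8 arterial, 3 venous, 1 lymphatic and 0 capillary members of 14, where 0 allows a share of up to 21.4% by 3 counts and 23.2% by the exact interval. WD had 22 arterial members of 29 (75.9%, 56.5% to 89.7%), 6 capillary and 1 venous. The exact intervals of the arterial share overlapped among all 3 libraries.

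**Figure D4:**
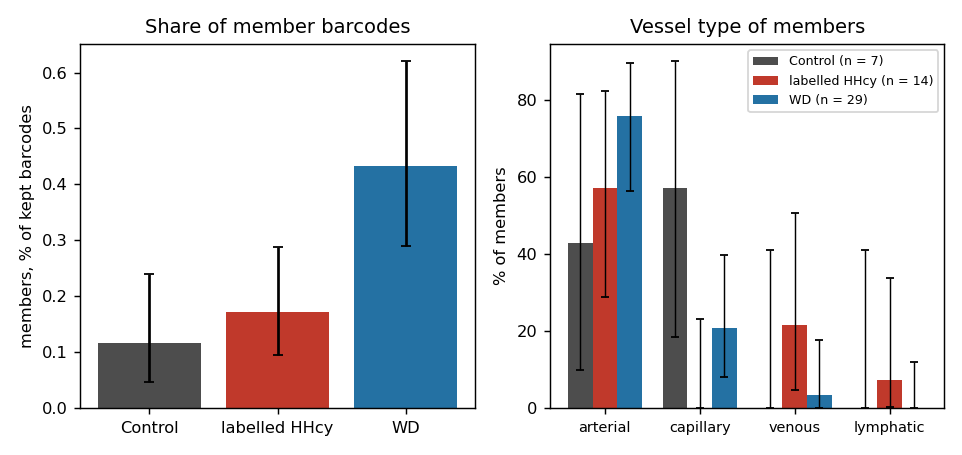
Left, members as a percent of kept barcodes in each library; right, each vessel type as a percent of that library's members, 2 untyped members left out of the bars. Bars start at 0 and error bars are exact 95% intervals for counting error; the WD share of 0.432% lies above the Control interval, and the arterial intervals overlap.

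Sums over members went only partly with this makeup. The library labelled HHcy had 0 capillary members but 554 UMIs of capillary genes, 441 of them in its venous member 11. Capillary genes were lower than in Control by a log2 ratio of -2.78 in the library labelled HHcy and -2.46 in WD, and all 79 Cd36, 45 Lpl and 33 Gpihbp1 UMIs of Control came from its 4 capillary members. Among arterial members only, the WD ratio turned to 1.28 and that of the library labelled HHcy was -0.42. Arterial genes had log2 ratios to Control of 0.08 in the library labelled HHcy and 0.04 in WD, and neither direction was stable: as a mean over cells the ratios were 0.91 and 0.53, in arterial members only 0.47 and -0.24, and without Tm4sf1 the first was -0.33. Over all members, 13.5% of 947 genes were at least 2-fold higher and 8.03% lower in the library labelled HHcy than in Control; for WD these were 13.2% and 7.36% of 1427. Between the library labelled HHcy and WD, 4.01% of 2171 genes were at least 2-fold higher in the former and 5.57% lower. The 10 genes furthest above Control in the library labelled HHcy began with Igfbp5, Adamts8, Ccl21a and Nts, found in 2, 1, 1 and 3 members. Those in WD began with Cxcl13 and Csn2, all of whose UMIs came from member 12. Adamts1, a secreted protease, and Kctd12 were spread over 17 and 15 WD members, with 0 UMIs in Control, where 3 UMIs would have read 78.4 CPM.

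Comparison within arterial members (3, 8 and 22 barcodes) holds the called type fixed but rests on 3 Control barcodes. Here 18.5% of 448 genes were at least 2-fold higher and 10.5% lower in the library labelled HHcy than in Control, and 15.3% and 8.4% of 1179 in WD. All 4 MHC class II genes with enough UMIs (H2-Aa, H2-Ab1, H2-Eb1 and Cd74) were past 2-fold higher in both comparisons, against median log2 ratios over all genes of 0.21 and 0.12. The list summed to 782, 3363 and 2569 CPM in Control, the library labelled HHcy and WD. Without the 1 barcode of each library that carried the most, the values were 525, 2087 and 2267 CPM. Single arterial members overlapped, from 515 to 2255 CPM in Control, 188 to 10458 CPM in the library labelled HHcy and 326 to 9434 CPM in WD. Without member 12 the WD sum was 2502 CPM. Class II genes stood at 555 CPM in fibroblast barcodes of the 3 libraries together, and in all other kept barcodes at 19456, 20208 and 19278 CPM. The part of free RNA in these values was not tested.

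Early response genes, which tissue digestion itself induces, varied widely from barcode to barcode, from 749 to 36016 CPM in arterial members. They summed to 25944, 7686 and 13188 CPM in arterial members of the 3 libraries, and 1 Control barcode supplied 85.7% of the Control UMIs. Without the highest barcode of each library the values were 10639, 4300 and 10123 CPM. Medians per arterial member were 16645, 3818 and 3084 CPM, so WD lay lowest by median though not by sum. Without member 12 the WD sum was 11787 CPM. Socs3, Gadd45g, Zfp36 and Stmn2, all lower than in Control in both other libraries, rested on 1 arterial Control barcode each, which held 96.3% of the Socs3 UMIs of Control, 90.2% of the Zfp36 UMIs and 100% of those of Gadd45g and Stmn2. Cldn5, a rule gene, stood at 1079, 174 and 888 CPM, detected in 2 of 3, 4 of 8 and 19 of 22 arterial members. In Control, 28 of its 29 UMIs came from member 6. Without the highest barcode of each library the values were 106, 71.4 and 713 CPM, and Control without its own highest barcode lay below the 174 CPM of the library labelled HHcy. The aortic lining list was nearly level, at 18090, 17577 and 15435 CPM.

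**Figure D5:**
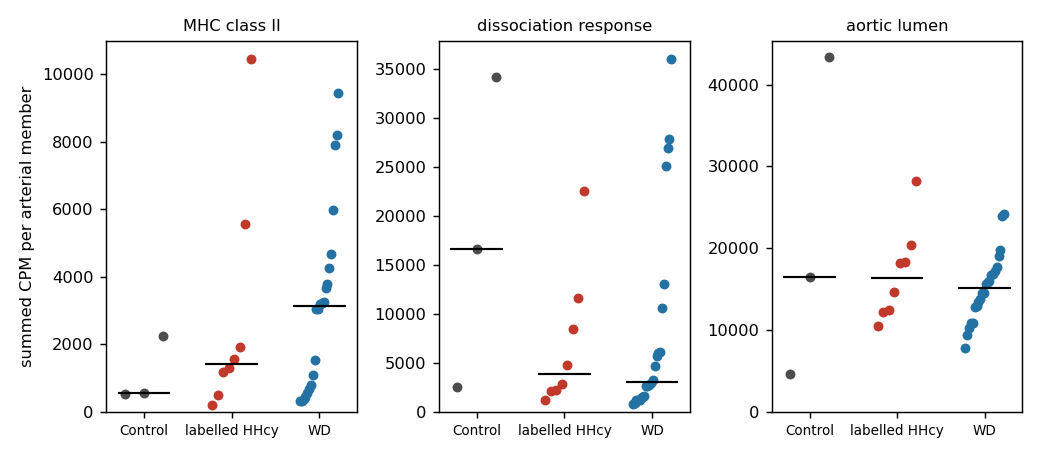
Summed CPM of 3 gene lists in each arterial member by library (3 Control, 8 labelled HHcy, 22 WD); points are barcodes in ascending order within a library and the line is the median. MHC class II medians were 555, 1426 and 3123 CPM with overlapping ranges, and the aortic lining list spanned 4624 to 43337 CPM in Control alone.

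Between the library labelled HHcy and WD, both with more arterial members, 4.35% of 1565 genes were at least 2-fold higher in the former and 6.52% lower. Apoe was the furthest up, at 1968 against 57.6 CPM and in 7 of 8 against 7 of 22 arterial members. Of its 158 UMIs, 86 and 63 came from 2 barcodes. Over all called barcodes of these libraries Apoe stood at 374 against 19.3 CPM, so this difference was not particular to endothelial barcodes. The conflict of the library labelled HHcy with its strain label, given above, applies here too. Thrombospondin (Thbs1) stood at 2616 against 120 CPM and in 6 members each, with 48.1% of the higher level in 1 barcode. Ccn2, a matricellular target of stretch signalling, was at 1283 against 101 CPM in 5 and 3 members, and 1 barcode held 84.5% of its 103 UMIs in the library labelled HHcy. The BMP inhibitor Smad6 stood at 448 against 67.2 CPM in 6 and 9 members, 50% of the former in 1 barcode. Genes furthest the other way, from Cxcl13 to Fcer2a, came from 1 or 2 WD barcodes, mainly member 12 for Cxcl13, Csn2, Postn and Ubd, while the NF-kappaB regulator Nfkbiz was in 10 WD arterial members at 317 CPM against 24.9 CPM in 2.

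Markers of single leukocyte types were low in members, while general haematopoietic and stromal genes were present. The 12 haematopoietic genes summed to 1139 CPM, with UMIs in 48 of 50 members. The highest, at 8542 CPM, was member 7 of the library labelled HHcy, which is also low in endothelial genes. Other barcodes held 9838 CPM of the list (11 of 12 genes at least 4-fold lower in members, Ptprc limited by the rule). Fibroblast barcodes held 410 CPM. The B cell list summed to 189 CPM against 11494 CPM in other barcodes (9 of 9 genes at least 4-fold lower, Cd79a by the rule), the macrophage list to 279 against 9828 CPM (12 of 12, Csf1r by the rule), and the neutrophil list to 118 against 8495 CPM (7 of 8). T and NK cell genes had 3 UMIs in all. Fibroblast genes summed to 1380 CPM, and 38550 CPM in fibroblast barcodes; Dcn (decorin) supplied 867 CPM from 21 members and Col1a1, limited by the rule, had 0 UMIs. Smooth muscle and pericyte genes summed to 362 CPM in 21 members, with Cnn1, Kcnj8, Abcc9, Cspg4 and Notch3 at 0. The myofibroblast genes Acta2 and Tagln were in 8 and 10 members. In arterial members they stood at 249 and 448 CPM in the library labelled HHcy. They stood at 86.4 and 76.8 CPM in WD and at 0 in Control, where 3 UMIs would have read 112 CPM. Both WD values lie below that level, so Control and WD cannot be told apart here. In arterial members of the library labelled HHcy, WD and Control the smooth muscle list, which shares both genes, stood at 710, 384 and 0 CPM. Members 14 and 10 of the library labelled HHcy held 29 and 22 of its UMIs. In WD, member 12 held 38 and member 18 held 21. The part of smooth muscle RNA in the Acta2 and Tagln values was not tested.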

How the data were processed

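The deposited matrices hold raw UMI counts per gene and barcode for 3 libraries, with 32285 gene rows each. Per the file headers they come from Cell Ranger 4.0.0; per the submitters' processing notes the tool was Cell Ranger 2.2.0 with the genome build mm10, and the conflict could not be settled from the sources used here. Rows that share a symbol were summed (38 symbols). From the counts, levels were computed as CPM, the UMIs of a gene or list summed over a set of barcodes, per 1000000 UMIs of that set. Intervals are 95% exact Poisson, Clopper-Pearson or conditional binomial intervals and cover counting error only. No doublet caller was run; doublets with leukocytes were limited by the rule's own exclusions. Tools were Python 3.11.15, NumPy 2.4.6, SciPy 1.17.1, pandas 2.3.3 and Matplotlib 3.10.9, and the scripts were tested on simulated data.

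Comparison sets were called from kept barcodes by counts: 6912 B cell barcodes (Cd79a with 3 or more UMIs over it and other B cell genes), 5655 macrophage barcodes (Csf1r with 3 or more over it, C1qa, Adgre1 and Cd68) and 219 fibroblast barcodes (2 or more Col1a1 UMIs and 5 or more over it, Col1a2, Col3a1, Dcn and Lum), each without the defining genes of the others. A gene with 0 UMIs in a set enters a list median at 3 counts. Between libraries, genes had 30 or more UMIs over both and 1 UMI was added to each. The text names genes of 30 lists, the 20 genes with the largest ratio of members to other barcodes (in 20% or more of members and in all libraries), the 10 furthest each way between libraries, and the 5 leading genes of a vessel type. Other genes named were leading genes of the 2 members low in endothelial RNA, chosen after their values were seen. Members, lists and rules were chosen with earlier results of these data known. Mx1 and Mx2 are not in the matrices. Alternatives changed the marker, Ptprc, mitochondrial, gene and leukocyte limits, the type call, the scale, the comparison set and the libraries pooled.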

Additional observations from a re-analysis of the deposited data

How the results depend on the processing

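With 1 library per condition no replicate could be left out and no test was made; moved means by more than the counting interval. No paired analysis was possible because each group has 1 library and the result comes from no test. Members numbered 55, 44, 48, 43, 56 and 49 with 2 or more rule UMIs, 5 or more, 2 rule genes, 0 Ptprc UMIs, a 20% mitochondrial limit and 500 genes, and 19 (5 Control, 2 labelled HHcy, 12 WD) with at most 5 haematopoietic UMIs, a limit that removes deeper barcodes. That limit moved most values: the share labelled HHcy over Control to -1.76, which turns its direction, arterial and capillary members to 36.8% and 47.4%, the ratios to other barcodes to 5.57 (arterial), 5.88 (capillary), 4.01 (venous) and 4.68 (lymphatic), and the ratios to Control of the library labelled HHcy to -0.31 (arterial), -4.10 (capillary) and 1.64 (venous) and of WD to -2.16 (capillary) and 1.91 (venous). The arterial ratio to other barcodes was 6.68 with 0 Ptprc UMIs, 6.46 as a mean over cells, 6.82 without the 2 members low in endothelial RNA, and 6.55, 6.46 and 7.45 without Control, the library labelled HHcy and WD; the capillary ratio was 4.19, 5.12 and 4.03 in the first 3 of these, and 3.46 and 4.55 without Control and WD. The venous ratio as a mean over cells was 3.82. The lymphatic ratio was 3.71 without WD and reversed to -0.15 without the library labelled HHcy, where lymphatic members were 0%. Capillary genes, labelled HHcy over Control, were -2.61 (2 UMIs), -2.54 (2 rule genes), -2.32 (0 Ptprc), -2.53 (20% mitochondrial), -4.42 (mean over cells), -3.21 (without Fabp4) and -0.42 (arterial members only); for WD over Control they were -2.61 (5 UMIs), -2.10 (2 rule genes), -2.14 (mean over cells), -2.28 (without Fabp4) and reversed to 1.28 in arterial members only. Arterial genes, labelled HHcy over Control, were 0.91 as a mean over cells, -0.33 without Tm4sf1 and 0.47 in arterial members only; for WD they were 0.53 as a mean over cells and -0.24 in arterial members only. Venous genes, labelled HHcy over Control, were 0.77 in arterial members only. Thinning to 1000 UMIs gave 41.7% arterial. The share of members, WD over Control, reversed to -0.53 with fibroblast barcodes as the denominator. With fibroblast barcodes as the comparison set the ratios were 1.36 (arterial), 2.38 (venous) and 1.21 (lymphatic), and these reversed: adhesion -0.15, basement membrane -1.84, MHC class II 2.08, cell cycle 0.67, haematopoietic 1.48, B cell 0.32, fibroblast -4.80, smooth muscle -2.52 and platelet and red cell genes 0.16. The cause of these moves was not tested. The other 138 values of these shares and vessel lists stayed within the counting interval; of the other lists' values, 400 stayed within it and 175 moved. The removal of the 2 low members, the arterial-only comparison and the fibroblast denominator were chosen after seeing the data. The lymphatic ratio between libraries has no value because Control had 0 UMIs.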
